A study of Mus musculus with 15 samples.

Results

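The 47 genes described here code for the subunits of the GABA and glutamate receptors of the mouse brain, out of 18931 genes in the table. They were chosen by symbol alone, as the genes of the GABA-A and GABA-B receptors (21 genes) and of the AMPA, kainate, NMDA, delta and metabotropic glutamate receptors (26 genes). The 1 further symbol that the pattern matched was left out because it codes for an interacting protein and not a subunit. The 15 libraries hold brain messenger RNA of the outbred Kunming mouse stock. The 5 groups of 3 libraries were sham, vehicle, JA, UA and JU, and all of them carry middle cerebral artery occlusion (MCAO, a stroke model) in their titles, sham included. The study title names jasminoidin and ursodeoxycholic acid, but the labels do not spell out JA, UA or JU, and the sources give no dose, time, age, sex or brain region. Whether each library is another animal is not stated either, so every p-value refers to the spread among these libraries alone, and that spread could be technical.

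GABA-A receptors are pentameric chloride channels, usually made of alpha, beta and gamma or delta subunits together, and they carry most fast inhibition in the brain. GABA-B receptors act more slowly through G proteins. AMPA and kainate receptors open quickly to glutamate, NMDA receptors also need relief from magnesium block and admit calcium, and metabotropic glutamate (mGlu) receptors signal through G proteins. In ischemia, glutamate released by failing neurons overstimulates its receptors, and calcium entry through them is a textbook route of neuronal injury.

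The libraries held 18346180 to 20447465 counts each, and the receptor genes took 0.704% to 0.739% of the counts in sham and 0.478% to 0.639% in vehicle. Their share was 0.672% to 0.748% in JA and 0.684% to 0.748% in UA. JU replicate 1 stood apart with 0.304%, against 0.677% and 0.641% in JU replicates 2 and 3. On the first principal component of all genes, which held 66.5% of the variance, JU replicate 1 scored 128.8 and vehicle replicate 2 scored 84.2, while the sham libraries scored -40.4 to -39.1. Results are therefore given with all 15 libraries and again without JU replicate 1. That library was singled out after these values were seen, its receptor share among them. It belongs to neither group of 3 of the 4 comparisons but enters the estimate of spread that they share. Summed CPM (counts scaled to library size) of 8 pan-neuronal markers moved in the same direction as the receptors, with 8082 to 8252 in sham, 4574 to 6593 in vehicle and 2978 in JU replicate 1. For 6 microglial markers the sums were 267 to 306 in sham, 810.4 to 1645 in vehicle and 1608 in JU replicate 1, and none of these markers was at 0 throughout. In bulk tissue, fewer cells of a type and less RNA per cell cannot be told apart, and the part of either in the values below was not tested.

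Levels between genes are compared in FPKM, which is scaled to transcript length. In sham the highest was Gabbr1, the ligand-binding subunit of the GABA-B receptor, at 145 ± 4.999 FPKM (SD, n = 3). Grin1, the obligatory NMDA subunit, was at 111 ± 9.44 FPKM. Gria1, an AMPA pore subunit, was at 79.4 ± 3.54 FPKM and Gabbr2, the signalling partner of Gabbr1, at 77.6 ± 5.39 FPKM, and the libraries of these 2 genes overlapped. Gria2, the AMPA subunit that limits calcium entry, was at 45.96 ± 2.32 FPKM and Gabrb2, a GABA-A beta subunit, at 45.04 ± 1.48 FPKM, and these libraries overlapped too.

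**Figure D1:**
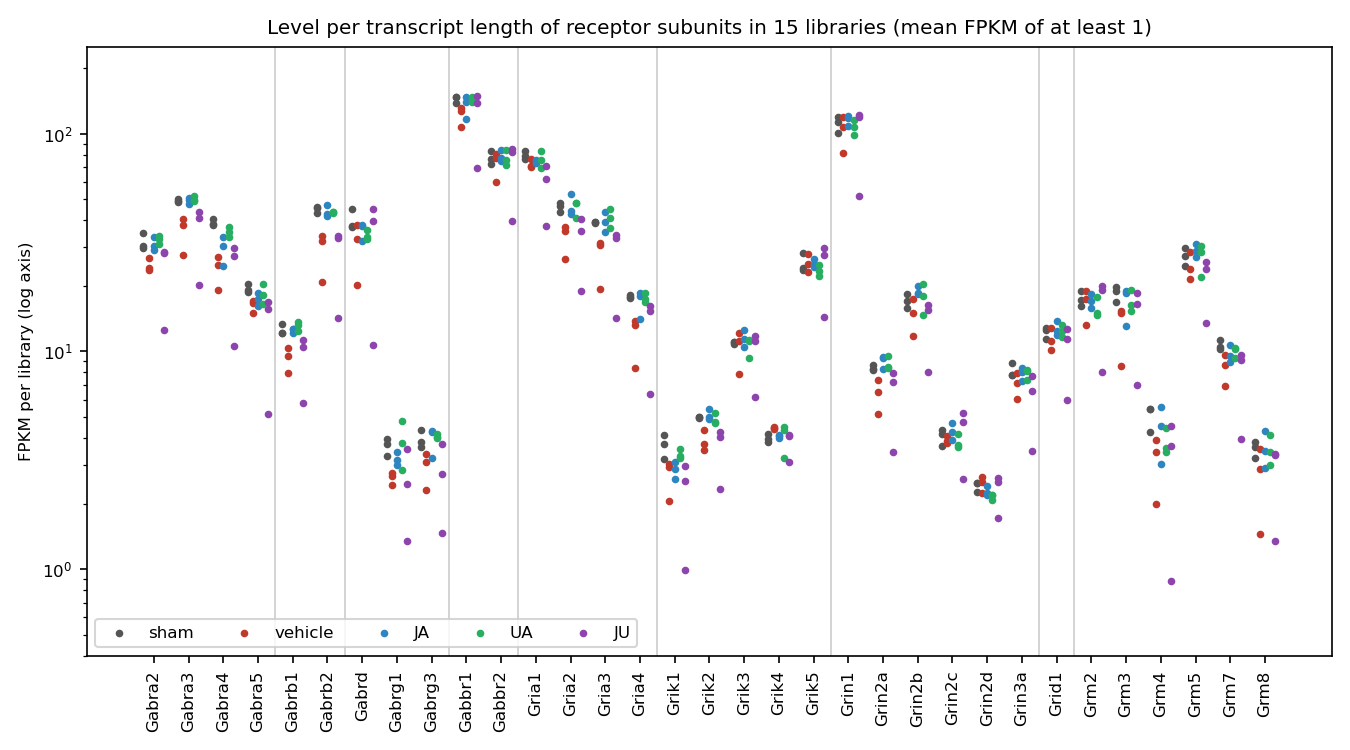
Level of 33 receptor subunits with a mean of at least 1 FPKM. The vertical axis is FPKM on a log scale and each point is 1 of 15 libraries, coloured by group, with families separated by grey lines. Gabbr1 and Grin1 are highest, the vehicle points of most GABA-A subunits lie below the sham points, and the lowest JU point of most genes is JU replicate 1.

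At the other end, 5 of the 47 genes were too low to be tested, namely Gabrp, Gabrr1, Gabrr3, Grin3b and Grm6, with at most 8 counts in any library. Grm6, the mGlu receptor of retinal bipolar cells, had 1 count in vehicle replicate 3 and 0 in the other 14 libraries. Gabra6, the alpha subunit of cerebellar granule cells, was listed unevenly, with 1, 0 and 1 counts in the 3 sham libraries, 16, 0 and 1 in vehicle, 0, 0 and 60 in JA, 0, 168 and 0 in UA and 0, 3 and 0 in JU. The granule cell gene Cbln3 was also highest in UA replicate 2 (17.4 CPM) and JA replicate 3 (5.36 CPM), against 0.0553 to 1.64 CPM elsewhere, and the Purkinje and bipolar cell gene Pcp2 was at 2.72 and 1.21 CPM in those 2 libraries and at most 0.205 CPM elsewhere. The other cerebellar markers did not all follow. Cbln1 and Car8 were highest in UA replicate 2 (21.9 and 31.9 CPM), but JA replicate 3 lay among the other libraries (13.4 and 19.3 CPM). Zic1 was highest in JU replicate 1 (68.5 CPM) and vehicle replicate 2 (55.7 CPM), and Calb1 lay within the sham range in UA replicate 2 and JA replicate 3. Gabra6 was thus high in single libraries of 3 groups, and its positive fold change between vehicle and sham rested on 1 library with 16 counts.

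RefSeq promoter windows of build GRCm38.p6 were found for 32 of the 47 genes. The bases upstream of the start of transcription are shown for 3 genes whose windows hold no annotated exon, chosen after their values were seen. Gabra2 and Gria2 had lower CPM in every vehicle library than in any sham library, and Grin2c did not. Capitals mark GGGCGG, the core of the GC box bound by Sp family factors, or its reverse complement CCGCCC.
Gabra2, chr5:71095850-71096099, minus strand: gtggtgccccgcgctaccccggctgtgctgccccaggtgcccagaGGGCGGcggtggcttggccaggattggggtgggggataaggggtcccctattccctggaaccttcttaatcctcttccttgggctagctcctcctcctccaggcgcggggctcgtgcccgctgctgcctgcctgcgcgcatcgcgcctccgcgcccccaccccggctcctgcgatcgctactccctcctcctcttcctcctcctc
Gria2, chr3:80802836-80803085, minus strand: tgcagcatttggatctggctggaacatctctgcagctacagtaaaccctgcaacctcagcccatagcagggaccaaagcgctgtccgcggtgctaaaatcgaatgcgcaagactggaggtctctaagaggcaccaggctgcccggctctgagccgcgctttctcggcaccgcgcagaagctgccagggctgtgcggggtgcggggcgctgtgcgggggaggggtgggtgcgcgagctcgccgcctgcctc
Grin2c, chr11:115267244-115267493, minus strand: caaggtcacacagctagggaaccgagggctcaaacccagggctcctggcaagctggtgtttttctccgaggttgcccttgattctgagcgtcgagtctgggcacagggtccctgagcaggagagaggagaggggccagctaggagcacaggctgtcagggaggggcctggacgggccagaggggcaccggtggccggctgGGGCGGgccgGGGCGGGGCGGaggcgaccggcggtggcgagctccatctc
The motif was searched on both strands, with overlapping matches counted. Gabra2 held 1 match, Gria2 0 and Grin2c 3, and the GC content of the 3 windows was 70%, 64.8% and 68.8%. Among all windows of the receptor genes, 18 of 39 (46.2%) held a match, against 32.7% of 32851 windows of all genes, and their median GC content was 58.8% against 52.4%. A match describes these letters only and is no evidence that a factor binds there.

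Between vehicle and sham, the receptor genes lay lower in vehicle almost throughout. The log2 fold change was negative for 40 of the 42 genes tested (49.5% of all 15125 genes tested), with a median of -0.43 against 0.00 over all genes. For 26 of the 42, every vehicle library lay below every sham library (24.7% of all genes). For 1, Grik4, every vehicle library lay above, and the share of all genes that did so is not given here. With all 15 libraries no receptor gene passed an adjusted p of 0.05 in the quasi-likelihood test of edgeR, whereas 5.02% of all genes did. At an unadjusted p of 0.05, 9 of 42 passed in edgeR (29.3% of all genes), 11 of 47 in DESeq2 and 7 of 42 in limma voom, and DESeq2 and voom called 0 after adjustment. Shares of all genes were not computed for DESeq2 and unweighted voom, so their counts, here and below, cannot be set against one. When JU replicate 1 was left out, 22 of the 42 fell (16.9% of all genes were lower) and 0 rose. The fold changes hardly moved, since that library is in neither group, but the median standard error of the receptor genes went from 0.25 to 0.13.

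The 22 genes that fell without JU replicate 1 were 12 of 16 tested GABA-A genes, 1 of 2 GABA-B genes, 3 of 4 AMPA genes, 2 of 5 kainate genes and 1 of 6 tested NMDA genes, and the others were delta or mGlu genes. GABA receptor genes had a median log2 fold change of -0.51 and glutamate receptor genes one of -0.29 in that fit, and with the correction for GC content described below they were -0.34 and -0.28. Whether these medians differ was not tested. With vehicle replicate 2 also left out, an alternative chosen after seeing the data, 15 of 42 fell (11.7% of all genes).

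**Figure D2:**
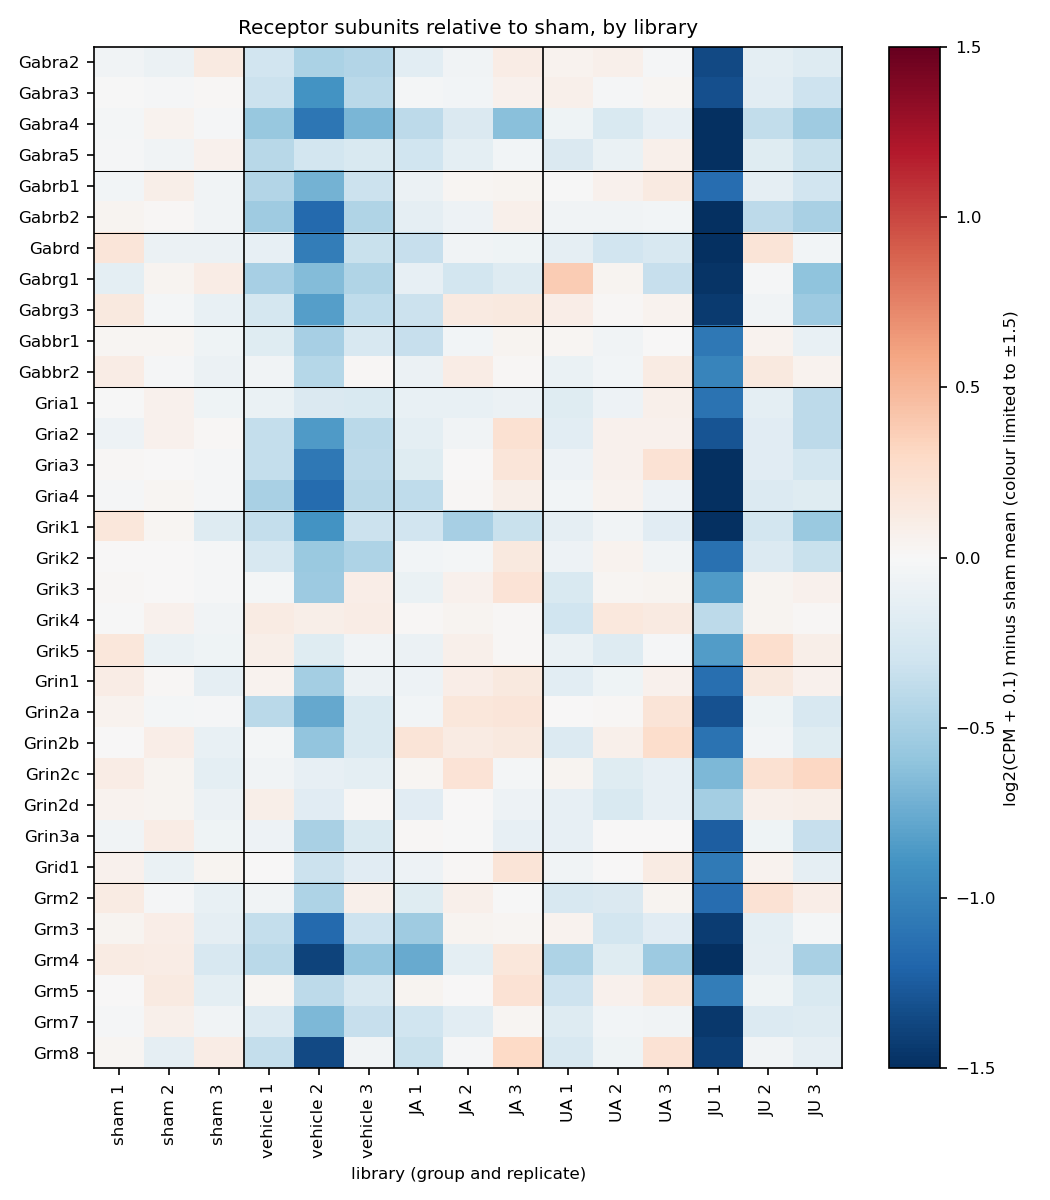
Log2(CPM + 0.1) of 33 receptor subunits with a mean of at least 1 FPKM, minus the sham mean of each gene. Columns are libraries, rows are genes ordered by family, blue is below and red above the sham mean, with colours limited to 1.5 either way. Vehicle replicate 2 and JU replicate 1 are the darkest columns, and Grik4, Grik5, Grin2c and Grin2d stay pale in vehicle.

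Against the same vehicle libraries, receptor genes lay higher in JA and in UA. In JA the log2 fold change was positive for 39 of 42 genes (49.3% of all genes), with a median of 0.33 against -0.01 over all genes. For 14 of 42, every JA library lay above every vehicle library (17.6% of all genes). No receptor gene passed the adjusted threshold in edgeR with all 15 libraries (1.56% of all genes did). At an unadjusted p of 0.05, 6 of 42 passed (18.8%), as did 7 of 47 in DESeq2 and 6 of 42 in voom. Leaving out JU replicate 1, 12 of 42 rose in JA (11.3% of all genes were higher), and with vehicle replicate 2 also left out 10 of 42 did (5.74%). In UA the log2 fold change was positive for 38 of 42 genes (48.5% of all genes), with a median of 0.41 against -0.01, and 21 of 42 did not overlap with vehicle (21.7%). Again 0 passed in edgeR with all 15 libraries (3.47% of all genes did). At an unadjusted p of 0.05, 12 of 42 passed (24.3%), with 14 of 47 in DESeq2 and 8 of 42 in voom. With JU replicate 1 left out, 18 of 42 rose in UA (14.8% of all genes were higher), and without vehicle replicate 2 as well 13 of 42 did (9.08%). The comparisons with vehicle and the comparison of vehicle with sham share the 3 vehicle libraries, so their opposite signs are not independent. JA and UA were not tested against each other here.

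In JU against vehicle no receptor gene was called, and 0 of 42 passed at an unadjusted p of 0.05 (1.98% of all genes did). Here 0% of all genes passed after adjustment, and 0.00656% did without JU replicate 1, none of them a receptor gene. DESeq2 and voom also gave 0 receptor genes at either threshold. The smallest receptor p without JU replicate 1 was that of Grin2c, a glial and cerebellar NMDA subunit (unadjusted p = 0.00142, adjusted p = 0.186 in edgeR). The median log2 fold change was -0.05 with all libraries and 0.25 without JU replicate 1, so that library decided the sign. The single receptor gene whose JU libraries all lay below every vehicle library was Grik4 (1.89% of all genes).

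**Figure D3:**
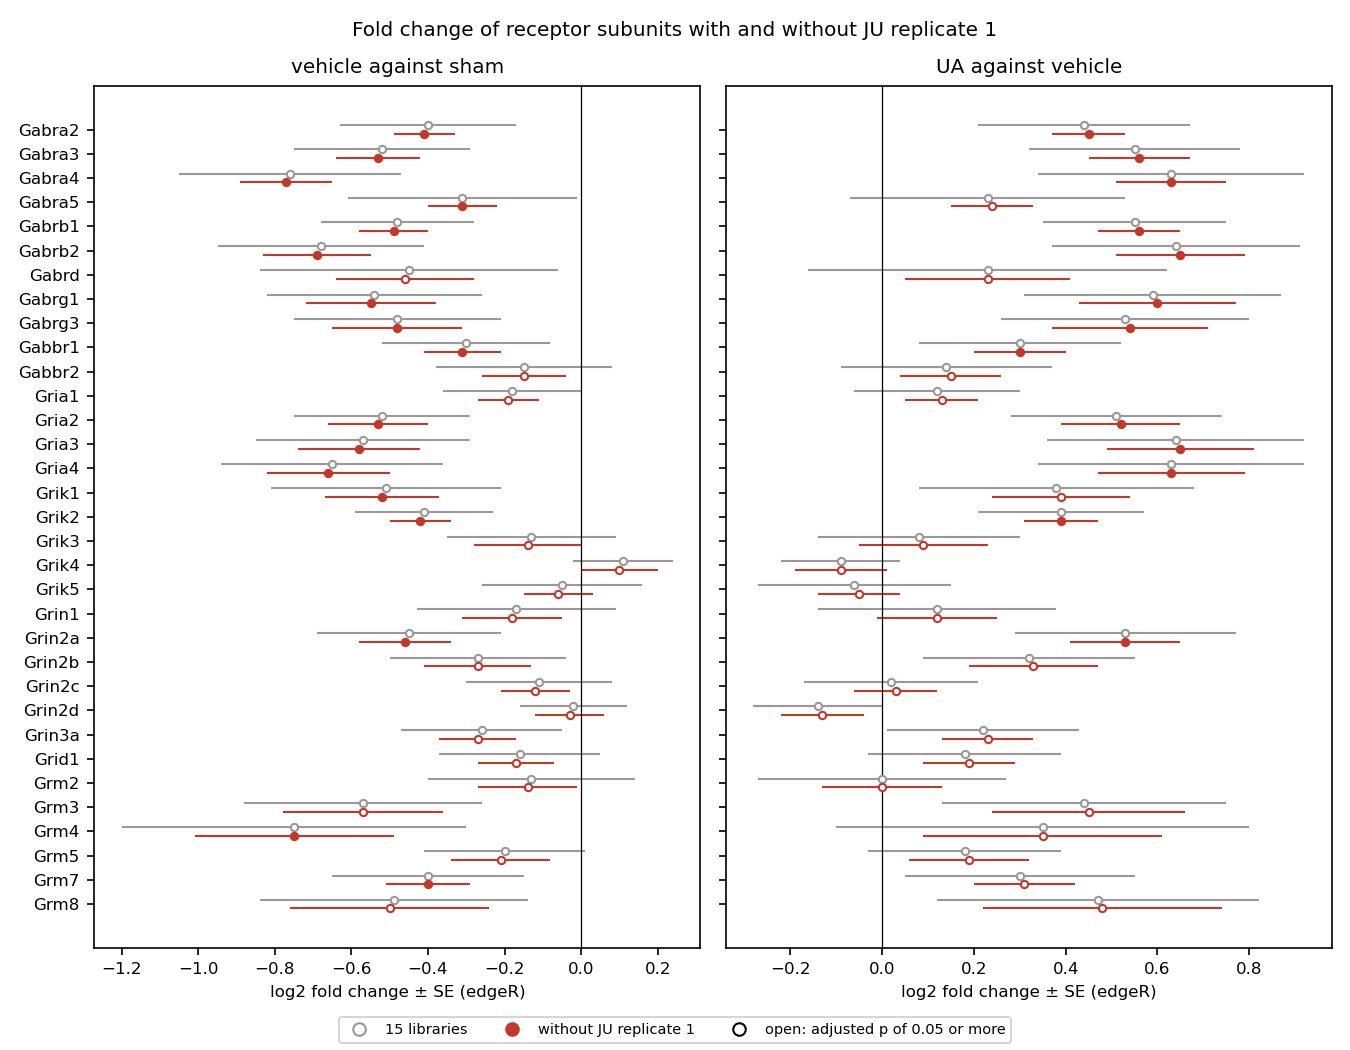
Log2 fold change of the same 33 genes in vehicle against sham (left) and UA against vehicle (right), with the standard error from edgeR as bars. Grey is the fit of 15 libraries and red the fit without JU replicate 1, filled where the adjusted p is under 0.05. Points of a gene coincide in both fits while the bars shorten, and all filled points lie below 0 on the left and above 0 on the right.

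Across the receptor genes, fold changes were ordered partly by the GC content of the transcripts. The longest annotated transcripts of the 47 genes had a median GC content of 47.2%, against 49.7% for all genes. Among the 38 genes with a mean of at least 1 FPKM, the 19 lower in GC had a median log2 fold change of -0.52 in vehicle against sham, and the 19 higher in GC one of -0.18. Spearman's rho between fold change and GC was 0.66 in this comparison, -0.66 in JA against vehicle and -0.80 in UA against vehicle, as a description over 38 genes that share the same libraries. All genes showed the pattern by library, since the tenth of genes lowest in GC had a median log2 deviation of -0.175 to -0.158 in vehicle and -0.19 to -0.102 in JU, against 0.075 to 0.165 in sham and 0.0323 to 0.156 in JA and UA. After a correction for GC in each library, the 2 medians were -0.30 and -0.30, and rho was -0.08. The sign stayed negative for 41 of 42 genes, and the median over them was -0.30.

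Fewer genes passed with that correction. With all 15 libraries it left 0% of all genes called in any of the 4 comparisons. Together with leaving out JU replicate 1, a combination chosen after seeing the data, it left 14 of 42 receptor genes lower in vehicle than in sham (12.9% of all genes), 0 higher in JA (1.31%) and 7 higher in UA (7.05%). Of the 22 genes that fell without it, 11 were among the 14. Gabra2, Gabrb1, Gabrg1, Gabrg3, Gabrq, Gria2, Gria3, Grik2 and Grin2a were among those that no longer passed, with log2 fold changes of -0.09, -0.24, -0.13, -0.30, -1.34, -0.16, -0.30, -0.09 and -0.34 in that order. For Gabrq this was close to the -1.46 before the correction (adjusted p = 0.0544 after it), so its lost call did not come with a much smaller fold change. In turn, Gabbr2, Gabrd and Grin3a passed there and not without the correction. The part of GC content in the receptor values was not tested further.

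**Figure D4:**
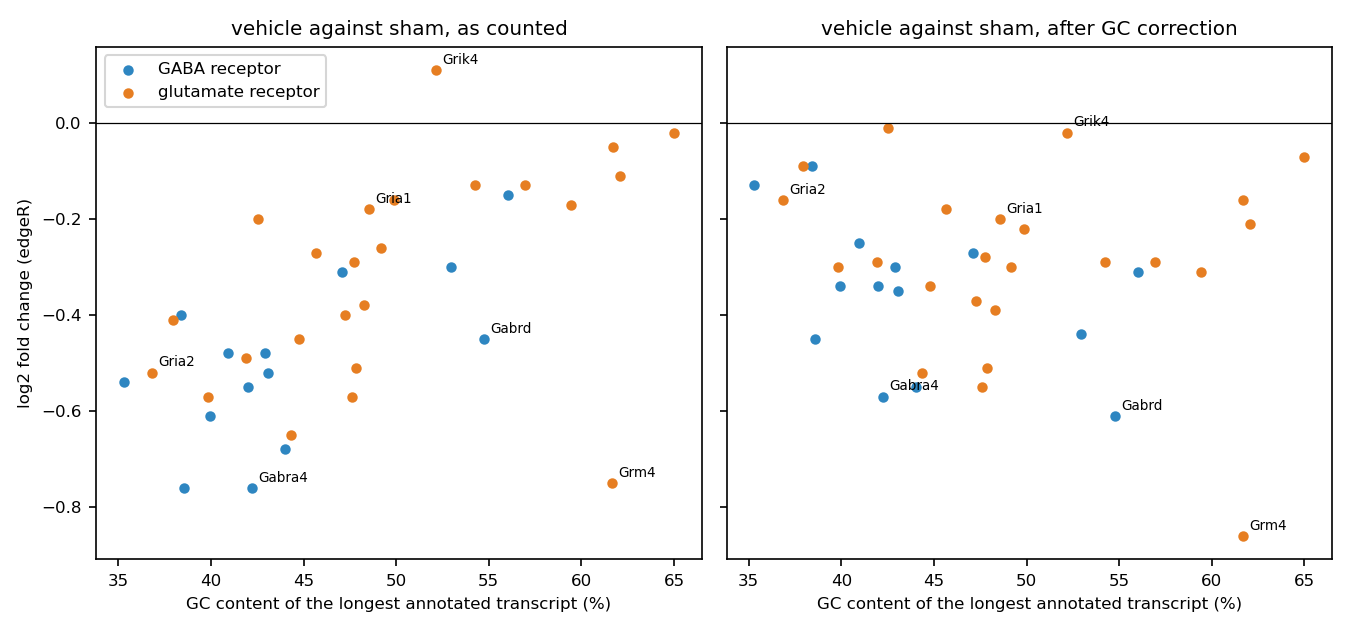
Log2 fold change of vehicle against sham for the 38 genes with a mean of at least 1 FPKM against the GC content of their longest annotated transcript in percent, as counted (left) and after correction for GC content in each library (right). Each point is a gene, blue for GABA and orange for glutamate receptors. The slope from GC-poor genes near -0.5 to GC-rich genes near 0 on the left is gone on the right, where the 38 points stay below 0.

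Other fits gave further counts. Fitting only the groups compared gave 13 of 40 lower in vehicle than sham (11.7% of all genes), 0 of 39 higher in JA (0%) and 8 of 40 higher in UA (7.78%). Voom with sample quality weights, chosen after seeing the data, kept all 15 libraries and gave 22, 12 and 17 of 42 (17.9%, 12.1% and 14.4% of all genes). Leaving out JU replicate 1 and JA replicate 1 together gave 23, 14 and 19 (17.1%, 13.5% and 15%).

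GABA-A alpha subunits set the binding site for benzodiazepines and much of the receptor's place in the cell. Summed over the family, they reached 235 to 240.3 FPKM in sham, 134 to 187 in vehicle, 213 to 231 in JA and 232 to 239.6 in UA. JU replicate 1 had 77.3 FPKM and the other JU libraries both 198. Gabra2 to Gabra5 fell in vehicle without JU replicate 1.

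Gabra4, a subunit of extrasynaptic receptors in forebrain neurons, had the smallest p of all receptor genes in this comparison. It stood at 162, 171 and 163 CPM in sham replicates 1 to 3 and at 112, 77.7 and 103 CPM in vehicle. All vehicle libraries were far below sham, for a log2 fold change of -0.76 ± 0.29 (SE) with an adjusted p of 0.116, and of -0.77 ± 0.12 (SE) with 0.0018 without JU replicate 1. Its level was 126, 142 and 107 CPM in JA, 158, 141 and 151 in UA and 44.01, 128 and 114 in JU. Each UA library lay above each vehicle library, whereas JA replicate 3 lay within the vehicle range. Gabra4 shares exon sequence with Gabrb1 on the opposite strand of chromosome 5, and no source used here gives the strand setting of the counting.

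Gabra3, the alpha subunit of many monoaminergic and deep cortical neurons, was at 203, 201 and 206 CPM in sham and 162, 109.6 and 153 in vehicle. In the treated groups Gabra3 reached 199.5, 197 and 213 CPM in JA, 215, 202 and 207 in UA and 81.8, 182 and 165 in JU. JA and UA were within or near the sham range, and JU replicates 2 and 3 lay between vehicle and sham. Without JU replicate 1 it fell by 0.53 on the log2 scale in vehicle (adjusted p = 0.00497). It rose by 0.53 in JA and 0.56 in UA in that fit (adjusted p = 0.0112 and 0.00589). With the GC correction added it passed in vehicle and UA but not in JA.

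Gabra2, a synaptic subunit of forebrain neurons whose upstream bases are printed above, ran at 169 to 196 CPM in sham and 128 to 146 CPM in vehicle, for a log2 fold change of -0.41 ± 0.08 (SE) without JU replicate 1 (adjusted p = 0.00406). Gabra5, which is rich in hippocampus and serves tonic inhibition, went from 80.9, 79.3 and 85.8 CPM in sham to 61.4, 67.8 and 69.8 in vehicle. It was at 66.7, 74.3 and 79.9 CPM in JA, 70.4, 76.5 and 86.5 in UA and 21.5, 72.3 and 64.9 in JU. Without JU replicate 1 it fell in vehicle (-0.31 ± 0.09 (SE), adjusted p = 0.0182) and passed in neither JA nor UA. With the GC correction added Gabra5 still passed in vehicle and Gabra2 did not.

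Beta subunits, which complete the GABA site and bind several anaesthetics, include Gabrb1 and Gabrb2, and both fell in vehicle without JU replicate 1. Gabrb2 was at 394, 387 and 368 CPM in sham and 265, 170.1 and 279.5 CPM in vehicle. It reached 348, 363 and 405 CPM in JA, 369, 370.2 and 373 in UA and 119, 293 and 274 in JU. All vehicle libraries were below all sham, JA and UA libraries, JU replicate 2 was slightly above the highest vehicle library and JU replicate 3 within the vehicle range. Its log2 fold change in vehicle was -0.68 ± 0.27 (SE) with all libraries (adjusted p = 0.124) and -0.69 ± 0.14 (SE) without JU replicate 1 (adjusted p = 0.00401).

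Gabrb1 was at 179.5, 196 and 177 CPM in sham and 136, 112 and 147 CPM in vehicle. It stood at 174, 187 and 189 CPM in JA, 184, 193 and 202 in UA and 83.5, 168 and 151 in JU. JA and UA did not overlap with vehicle. Without JU replicate 1 Gabrb1 had the smallest adjusted p of the receptor genes in UA (0.56 ± 0.09 (SE), adjusted p = 0.00275). With the GC correction added it passed in UA but in neither vehicle nor JA.

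The gamma subunits Gabrg1, also known from glia, and Gabrg3 were low, with 3.30 to 3.96 and 3.63 to 4.34 FPKM in sham. Gabrg1 was at 26.6, 30.2 and 31.8 CPM in sham and 20.8, 18.8 and 21.4 CPM in vehicle, and at 26.98, 24.4 and 25.8 CPM in JA, 38.5, 30.3 and 23.1 in UA and 10.6, 29.01 and 19.3 in JU. Gabrg3 was at 43.98, 38.8 and 36.6 CPM in sham and 33.05, 22.3 and 30.5 CPM in vehicle, and at 31.7, 43.5 and 43.9 CPM in JA, 42.4, 40.3 and 41.2 in UA and 14.6, 38.4 and 27.1 in JU. For both, every UA library lay above every vehicle library and every vehicle library below every sham library. Their log2 fold changes in vehicle were -0.55 and -0.48 without JU replicate 1 (adjusted p = 0.0278 and 0.0396). Those in UA were 0.60 and 0.54 in that fit (adjusted p = 0.0238 and 0.0314). With the GC correction added neither gene passed in vehicle or UA.

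Gabrd, the delta subunit of extrasynaptic receptors, was at 88.8, 74.01 and 73.7 CPM in sham and 72.3, 38.1 and 62.4 CPM in vehicle. It was at 61.6, 75.6 and 75.3 CPM in JA, 71.3, 64.6 and 66.3 in UA and 20.8, 89.4 and 76.4 in JU. Vehicle replicate 2 lay far below the other vehicle libraries, and Gabrd did not pass without JU replicate 1 (adjusted p = 0.0728). Gabrq, the theta subunit found in monoaminergic and hypothalamic neurons, was low, with 63, 76 and 82 counts in sham, 42, 11 and 32 in vehicle, 30, 50 and 54 in JA, 105, 121 and 39 in UA and 5, 69 and 46 in JU. Its log2 fold change was -1.46 ± 0.48 (SE) in vehicle and 1.71 ± 0.48 (SE) in UA without JU replicate 1 (adjusted p = 0.0345 and 0.0222), although UA replicate 3 lay within the vehicle range. Gabre, the epsilon subunit, and Gabrr2, a rho subunit, had at most 23 counts in a library and did not pass in any comparison.

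GABA-B subunits were the most abundant family per gene. Gabbr1 was at 874, 871 and 819.5 CPM in sham and 752, 606 and 722 CPM in vehicle, and at 673, 830.2 and 881 CPM in JA, 873, 824 and 857 in UA and 405, 886 and 792 in JU. Vehicle lay below sham and UA without overlap, and JA replicate 1 lay within the vehicle range. Without JU replicate 1 Gabbr1 fell in vehicle (-0.31 ± 0.10 (SE), adjusted p = 0.0371) and rose in UA (0.30 ± 0.10 (SE), adjusted p = 0.046). Its partner Gabbr2 was at 471, 429.9 and 409 CPM in sham, 420.1, 324 and 439.7 in vehicle, 409, 473 and 442 in JA, 407, 425 and 476 in UA and 219.7, 484 and 452 in JU. Here sham and vehicle overlapped, with a log2 fold change of -0.15 ± 0.11 (SE) and an adjusted p of 0.299 without JU replicate 1.

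AMPA receptors carry most fast excitation, and their Gria2 subunit keeps calcium out. Gria2 was at 482, 531 and 513 CPM in sham and 398, 283 and 384 CPM in vehicle. It was at 460.4, 490.3 and 597 CPM in JA, 455, 530.4 and 533 in UA and 207, 453 and 386 in JU. Vehicle lay below sham, JA and UA in all libraries. Without JU replicate 1 Gria2 fell by 0.53 on the log2 scale in vehicle (adjusted p = 0.0101) and rose by 0.54 in JA and 0.52 in UA (adjusted p = 0.0178 and 0.0149). With the GC correction its log2 fold change in vehicle was -0.16 and did not pass (adjusted p = 0.329). Gria2 did not pass in JA or UA there either.

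Gria3 was at 259, 257 and 254 CPM in sham and 200.1, 122 and 196 CPM in vehicle, and at 227, 258 and 291 CPM in JA, 243, 267 and 298 in UA and 91.2, 228 and 212 in JU. Gria4 was at 112, 116 and 113 CPM in sham and 80.9, 50.96 and 85.2 CPM in vehicle, and at 86.98, 115 and 120.5 CPM in JA, 111, 117 and 107 in UA and 39.7, 98.1 and 100.1 in JU. For both genes vehicle replicate 2 was the lowest vehicle library and no vehicle library reached sham, JA or UA. Their log2 fold changes in vehicle were -0.58 ± 0.16 (SE) and -0.66 ± 0.16 (SE) without JU replicate 1 (adjusted p = 0.0148 and 0.00982). With the GC correction added Gria4 still passed in vehicle (-0.52, adjusted p = 0.0336) and Gria3 did not.

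Gria1 was at 500.0, 526 and 482 CPM in sham and 469, 432 and 429.9 CPM in vehicle, and at 464, 465 and 475 CPM in JA, 442, 477 and 528 in UA and 234, 454 and 384 in JU. The vehicle libraries lay just below sham and overlapped with JA and UA, and the log2 fold change of -0.19 ± 0.08 (SE) did not pass without JU replicate 1 (adjusted p = 0.0927). As counted this was nearer 0 than the fold changes of Gria2, Gria3 and Gria4, but with the GC correction added it was -0.20, against -0.16 for Gria2, so that order did not hold, and neither difference was tested. Gria1 took more of the summed AMPA FPKM in vehicle, with 48.3, 56.6 and 46.5% against 43.9, 44.1 and 42.6% in sham. The shares were 44.9, 41.9 and 39% in JA, 42.2, 41.3 and 43% in UA and 48.7, 44.1 and 42.2% in JU, and the shares were neither tested nor corrected for GC content. Gria2 held 24.2, 25.4 and 25.9% in sham and 23.5, 21.2 and 23.8% in vehicle, again without overlap. In counts, not scaled to length, Gria2 held 35.6, 37.1 and 37.7% in sham and 34.7, 31.9 and 35.1% in vehicle. Gria1 held 36.9, 36.8 and 35.4% of the counts in sham and 40.8, 48.6 and 39.3% in vehicle. The order of Gria1 and Gria2 in sham thus depended on the unit.

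**Figure D5:**
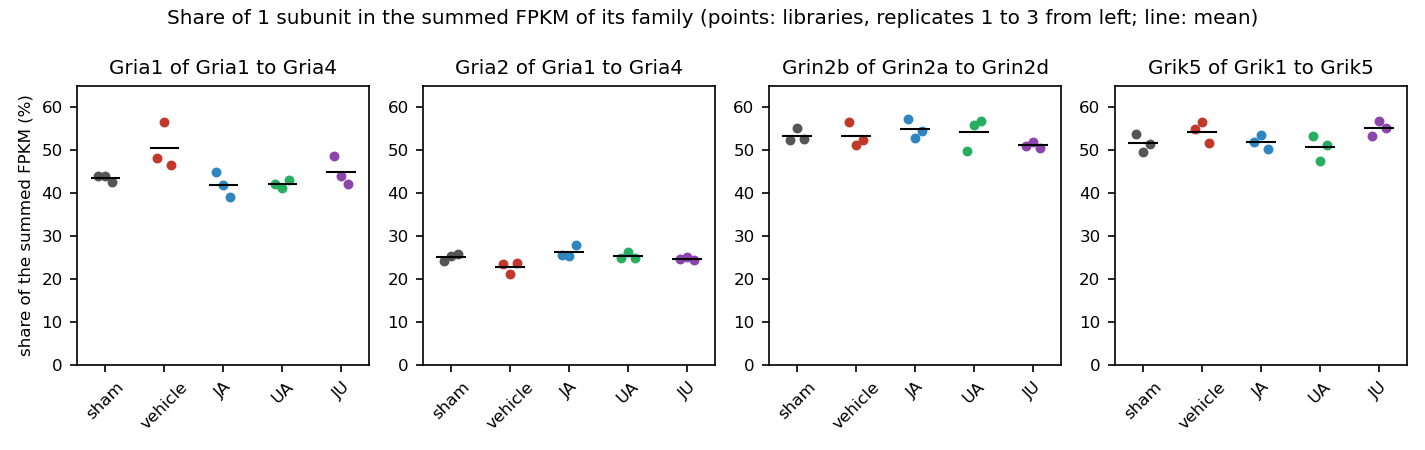
Share of 1 subunit in the summed FPKM of its family, in percent, for Gria1 and Gria2 of the AMPA subunits, Grin2b of the NMDA Grin2 subunits and Grik5 of the kainate subunits. Points are libraries in replicate order and lines are group means. Gria1 is above the sham range in all 3 vehicle libraries, with 56.6% in vehicle replicate 2, while Grin2b and Grik5 overlap between sham and vehicle.

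Kainate receptors act both before and after the synapse, and 2 of their 5 subunits fell in vehicle without JU replicate 1. Grik2, a pore subunit that can form channels alone, was at 67.03, 66.9 and 65.8 CPM in sham and 56.2, 45.3 and 48.5 CPM in vehicle, and at 64.8, 65.4 and 73.7 CPM in JA, 63.03, 69 and 63.9 in UA and 30.6, 57.7 and 52.7 in JU. All JA and UA libraries lay above all vehicle libraries. Without JU replicate 1 Grik2 fell in vehicle (-0.42 ± 0.08 (SE), adjusted p = 0.00363) and rose in JA (0.45 ± 0.08 (SE), adjusted p = 0.00672), where its adjusted p was the smallest of the receptor genes. Grik1 fell too, from 19.2 to 24.8 CPM in sham to 11.8 to 17.7 CPM in vehicle (adjusted p = 0.0174 without JU replicate 1). With the GC correction added Grik1 still passed in vehicle, but Grik2 passed in neither vehicle nor JA.

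The auxiliary-type kainate subunits, which need another kainate subunit as partner, did not pass the test in vehicle. Grik4 was at 25.9, 27.1 and 24.98 CPM in sham and 28.3, 27.5 and 28.1 CPM in vehicle, and at 26.2, 26.7 and 26.4 CPM in JA, 21.1, 28.9 and 28.5 in UA and 19.7, 26.8 and 26.3 in JU. Its 3 vehicle libraries lay just above all sham, JA and JU libraries, but the log2 fold change of 0.11 ± 0.13 (SE) did not pass (adjusted p = 0.602). After the GC correction it was -0.02, so the positive sign did not hold there. Grik5, the most abundant kainate subunit at 25.3 ± 2.51 FPKM in sham, was at 235, 196 and 199 CPM in sham, 223, 184 and 201 in vehicle, 197, 219.8 and 212 in JA, 195, 183 and 207 in UA and 117, 249 and 223 in JU. Grik3, a further pore subunit, was at 117, 117 and 115 CPM in sham, 114, 79.8 and 125 in vehicle, 108, 121 and 134 in JA, 98.97, 119 and 119 in UA and 64.2, 119.7 and 122 in JU. Both genes overlapped between sham and vehicle, with log2 fold changes of -0.06 ± 0.09 (SE) and -0.14 ± 0.14 (SE) without JU replicate 1 (adjusted p = 0.66 and 0.458).

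NMDA receptors pair Grin1 with Grin2 subunits that set their speed and calcium signalling. Grin1 was at 530.3, 497 and 446 CPM in sham, 507, 343 and 459 in vehicle, 466, 525 and 541 in JA, 438, 469 and 513 in UA and 224, 542 and 512 in JU. Apart from vehicle replicate 2 and JU replicate 1 its libraries lay between 438 and 542 CPM, and the log2 fold change in vehicle was -0.18 ± 0.13 (SE) without JU replicate 1 (adjusted p = 0.292). Grin2b, the juvenile and forebrain subunit, was at 430.1, 460.3 and 396 CPM in sham, 421, 285 and 365 in vehicle, 489, 465 and 475 in JA, 371, 449.9 and 515 in UA and 199, 417 and 378 in JU. Vehicle replicate 1 lay within the sham range, and Grin2b passed only in JA, without JU replicate 1 (0.42 ± 0.14 (SE), adjusted p = 0.0467). It did not pass there with the GC correction added.

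Grin2a, the mature subunit, was the 1 NMDA gene that fell in vehicle without JU replicate 1. It was at 178, 167 and 168 CPM in sham and 129, 100.3 and 145 CPM in vehicle, and at 166, 192 and 194 CPM in JA, 172, 172 and 196 in UA and 68.9, 164 and 144 in JU. Vehicle did not overlap with sham, JA or UA. The log2 fold changes were -0.46, 0.56 and 0.53 in vehicle, JA and UA (adjusted p = 0.0104, 0.0097 and 0.00805). With the GC correction added Grin2a passed in UA only. Grin2c, known from cerebellum and astrocytes, and Grin2d, known from interneurons and brainstem, lay at 36.8 to 43.8 and 15.1 to 16.7 CPM in sham and 36.6 to 39.3 and 14.3 to 17.04 CPM in vehicle. Neither passed (log2 fold changes of -0.12 and -0.03). Grin3a, a subunit that lowers calcium entry, was at 67.9, 76.2 and 67.1 CPM in sham, 66.5, 50.2 and 59.97 in vehicle, 71.03, 69.8 and 64.7 in JA, 64.6, 70.6 and 70.7 in UA and 29.8, 67.2 and 55.5 in JU. Its vehicle libraries lay just below sham (adjusted p = 0.0593 without JU replicate 1).

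Delta receptors bind cerebellins and D-serine rather than glutamate and organise synapses. Grid1, the forebrain member, was at 80.9, 71.9 and 79.4 CPM in sham, 77.9, 61.6 and 68.5 in vehicle, 73.2, 78.6 and 88.7 in JA, 74.2, 77.8 and 84.2 in UA and 36.97, 80.5 and 70.2 in JU, with overlap between all groups.

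Among mGlu receptors, Grm5 belongs to the excitatory group I, and groups II and III are inhibitory. Grm5, the most abundant at 27.3 ± 2.58 FPKM in sham, was at 118, 128 and 106 CPM in sham, 119, 89.02 and 99.5 in vehicle, 121, 117 and 136 in JA, 94.7, 122.8 and 131 in UA and 57.2, 112 and 100.4 in JU. Sham and vehicle overlapped, with an adjusted p of 0.24 without JU replicate 1. Grm3, a group II receptor of neurons and astrocytes, was at 85.2, 88.5 and 75.5 CPM in sham, 64.9, 36.7 and 66.8 in vehicle, 57.3, 85 and 84.5 in JA, 86.1, 68.5 and 73.7 in UA and 30.9, 74.9 and 81.3 in JU. All 3 vehicle libraries lay below sham, yet the test did not pass (-0.57 ± 0.21 (SE), adjusted p = 0.0524 without JU replicate 1). The group III receptors Grm4 and Grm7 of presynaptic endings fell in vehicle without JU replicate 1, by 0.75 and 0.40 on the log2 scale (adjusted p = 0.0442 and 0.0141), and Grm2 and Grm8 did not pass (-0.14 and -0.50). None of these mGlu genes passed in JA or UA without JU replicate 1. With JA replicate 1 also left out, Grm4 passed in JA and Grm7 in UA.

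Genes that work beside the receptors lay mostly lower in vehicle too. With all 15 libraries the medians of the 4 lists below were nearer 0 than the -0.43 of the receptor genes, but after the GC correction they were -0.31, -0.32, -0.26 and -0.35, against -0.30 for the receptor genes, and that order no longer held. In the fit without JU replicate 1, the counts below stand against 16.9% of all genes lower in vehicle, 14.8% higher in UA and 11.3% higher in JA. Of 13 auxiliary subunits of AMPA and kainate receptors, 12 had a negative log2 fold change against sham, with a median of -0.21. Neto2, an auxiliary kainate subunit, fell with all 15 libraries (log2 fold change -0.86 ± 0.20 (SE), adjusted p = 0.0314). With the GC correction and all 15 libraries 0 of the 13 fell. Without JU replicate 1 and as counted, 4 of the 13 fell. Of 15 scaffold genes of the excitatory synapse 14 were negative (median -0.20), and without JU replicate 1 there were 5 that fell, among them Dlg1 and Dlg2, which code for membrane scaffolds of the PSD-95 family (log2 fold changes of -0.51 and -0.47, adjusted p = 0.00528 and 0.0162). The 1 scaffold gene that rose was Homer3 (0.72, adjusted p = 0.0337), and with the GC correction added 0 of the 15 rose. Of 13 genes of the GABA scaffold and the GABA-B partners 10 were negative (median -0.21), and 5 fell without JU replicate 1. Among them were Gphn, which codes for the scaffold gephyrin, and Kctd16, a GABA-B partner (-0.47 and -0.63, adjusted p = 0.00587 and 0.00456). Kctd12, another GABA-B partner, was at 104.4, 104.1 and 119.2 CPM in sham and 114.6, 163.5 and 126.7 CPM in vehicle. Kctd8, a further partner, was at 8.418, 4.062 and 3.598 CPM in sham and 7.47, 6.229 and 5.638 CPM in vehicle. For both, sham and vehicle overlapped. Of 14 genes for transmitter synthesis, release and uptake 13 were negative (median -0.29), and 6 fell without JU replicate 1, among them Slc17a6, a vesicular glutamate transporter, and Gad2, which makes GABA (-1.14 and -0.68, adjusted p = 0.000387 and 0.0101). In UA against vehicle without JU replicate 1, 3, 5, 4 and 6 genes of these lists rose. In JA 3, 4, 3 and 4 rose and 1 scaffold gene fell, and in JU 0 of each list passed. With the GC correction added, 5, 3, 5 and 8 fell in vehicle (12.9% of all genes). In UA 3, 3, 3 and 4 rose (7.05%) there. In JA 1, 0, 2 and 1 rose (1.31%) there and 0 scaffold genes fell.

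Marker lists gave the cellular setting of these values. In the fit without JU replicate 1, 6 of 8 pan-neuronal, 2 of 6 glutamatergic and 3 of 6 GABAergic neuron markers fell in vehicle, and 6 of 6 microglial markers rose, with median log2 fold changes of -0.45, -0.35, -0.69 and 2.02. Of all genes, 16.9% fell and 17% rose in that fit. The summed CPM of GABAergic markers was 1190 to 1229 in sham, 568.2 to 900 in vehicle and 336 in JU replicate 1. Striatal projection neuron markers, 6 in number, summed to 943 to 1109 CPM in sham, and to 1104, 283 and 350 CPM in vehicle replicates 1 to 3, so vehicle libraries differed among themselves. The part of these shifts in the receptor values was not tested.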

How the data were processed

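Messenger RNA of mouse brain was sequenced in 15 libraries, 3 in each of 5 groups, from a TruSeq Stranded mRNA kit per the labels' protocols. The authors deposited raw counts per gene and FPKM values per gene in 1 table, per the file headers. Tools named in the submitters' processing notes are Trimmomatic, HISAT2, Cufflinks and DESeq, with build GRCm38 (mm10). The counting tool is not given in the sources used here, nor is its strand setting. A further 1 count column matched no labelled sample and was not used.

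Counts were tested over 15125 genes that passed edgeR's filterByExpr, with TMM scaling (factors 0.975 to 1.03), the quasi-likelihood test of edgeR 4.0.16 in R 4.3.3, 10 residual degrees of freedom, a biological coefficient of variation of 27.1%, and Benjamini-Hochberg adjusted p under 0.05. All 5 groups shared 1 fit. CPM are counts scaled to TMM library sizes, used within a gene, and FPKM was used between genes. Alternatives used DESeq2 1.42.0, limma 3.58.1 (voom, or log2 of FPKM plus 0.1 or 1), leaving out libraries, and a loess correction for GC content in each library. GC came from a GENCODE annotation of GRCm38, which matched 18517 genes (97.8%) and 47 of 47 receptor genes. Of the receptor genes, 14 share exon bases with a gene on the opposite strand. Scripts were tested on simulated data. A floor of 3 counts was worth 0.147 to 0.164 CPM, for counting error only.

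The receptor genes and the other lists were chosen with earlier results of these data known. Values in every library are given for genes past the threshold, for the 10 smallest p in vehicle against sham and the 4 smallest in each other comparison, and for the 2 highest of each family. From each other list at most 4 genes with the smallest p are named, except for the cerebellar markers, which are all named. Kctd8 and Kctd12 are named in addition, as GABA-B partners beside Kctd16. Some genes that this rule names are not reported here.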

Additional observations from a re-analysis of the deposited data

How the results depend on the processing

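No receptor gene passed in the edgeR fit of all 15 libraries, in DESeq2 or in voom without quality weights. Each call therefore rests on a fit chosen among several. Leaving out 1 library of the groups compared, or JU replicate 1, gave 0 to 22 called genes in vehicle against sham. The counts were 0 to 12 in JA, 0 to 18 in UA and 0 to 0 in JU against vehicle. The highest counts came without JU replicate 1, and no other library outside the groups compared was left out alone. Only the groups compared gave 13 in vehicle against sham and 8 in UA. JU replicate 1 was itself singled out after seeing the data. Of the further alternatives chosen in that way, GC correction without JU replicate 1 gave 14 and 7 in vehicle and UA. Leaving out JU replicate 1 with vehicle replicate 2 gave 15, 10 and 13 in vehicle, JA and UA. Leaving out JU replicate 1 with JA replicate 1 gave 23, 14 and 19, and voom with quality weights on all 15 libraries gave 22, 12 and 17. The median log2 fold change of JU against vehicle, -0.05, became 0.25 without JU replicate 1. In that comparison, leaving out 1 library at a time gave log2 fold changes of -0.61 to 0.05 for Gabra5 and -0.46 to 0.06 for Grin3a. These are the lowest and highest of those fits, not the values with all 15 libraries. The positive values came without JU replicate 1. Gabra5 was also 0.06 with GC correction added, 0.07 without vehicle replicate 2 too and 0.06 without JA replicate 1 too. Grin3a was 0.08 with GC correction added and 0.07 without JA replicate 1 too. Among single-gene values, 361 kept direction and side of the threshold, 90 came to pass it and 7 reversed. Between libraries of the same replicate number, correlations of deviations from the group mean ran from -0.726 to 0.484. With so few libraries in each group they cannot show whether the replicate numbers pair the samples. With a replicate block 0 receptor genes passed in each of the 4 comparisons. The share of all genes that passed with the block was not computed. Genes near the floor of 3 counts, such as Grm6, allow no statement on a difference.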
